A study of Rattus norvegicus with 10 samples.

Results

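The 66 genes described here were grouped by symbol as factors that remove introns from pre-mRNA or influence that removal. They were measured in rat brain shortly after an odor was inhaled. They are the genes on the array whose symbols start with Srsf, Snrp, Sf3a, Sf3b, Prpf, Hnrnp, Luc7l or U2af, with Rnpc3 and Ppih added. They have 112 single-gene probe sets, out of 31042 probe sets and 14217 genes measured. The genes were chosen by an earlier look at the same contrast, in which Luc7l3, Ppih and Rnpc3 were among the lower genes with the smallest p. Their differences between the groups are therefore given as a description, with no test.

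Splicing is carried out by the spliceosome, which is built on each intron from small nuclear ribonucleoproteins (snRNPs). The U1 snRNP marks the 5' splice site, the U2 snRNP with U2AF and the SF3A and SF3B complexes marks the branch point and the 3' end of the intron, and a tri-snRNP of U4, U6 and U5 then joins. A small class of introns is removed by a separate minor spliceosome that uses the U11 and U12 snRNPs instead. SR proteins and hnRNPs bind the pre-mRNA and shift which sites are used, and alternative splicing is widespread in brain.

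Total RNA came from the right part of brains divided at the midline, from 10 male Wistar rats aged 7 weeks. In the control group, 5 rats inhaled vapor from distilled water, and in the other group, 5 rats inhaled vapor of DMHF, a dimethyl hydroxy furanone known as a food aroma compound. In both groups 5 mL of liquid stood in a flask swept by air, inhalation lasted 5 min, the rats then rested for 10 min, and the exposure came before the dark period of the day. Each rat gave 1 array, labelled from 100 ng RNA by 3' in vitro transcription, and the titles call the arrays of a group biological replicates. No source used here states litter, cage, batch or scan date, so any p-value measures only the spread between these samples. In a sample of this many cell types, fewer cells of a type and less RNA per cell cannot be told apart.

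Deposited levels lay between 5.25 and 14.22, were read as log2 for that reason, and had an array median of 7.23. Across arrays a typical probe set varied with an SD of 2.20 millionths of a log2 unit (the median over probe sets), so differences are given in millionths of a log2 unit. They are not fold changes of RNA, and they can be compared between rats for 1 probe set but not between probe sets. Each is therefore also given in within-group SD, that is, divided by the pooled SD of the same probe set within the groups. A gene is represented by its brightest probe set, the one with the highest mean level. Of the 66 brightest probe sets, 63 lay above the array median. Neuron markers were above the array median for 10 of 10 genes, astrocyte markers for 7 of 7 and oligodendrocyte markers for 7 of 7, and the tissue label is brain.

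The splicing factor genes were spread over both directions. The mean was nominally lower after DMHF in 37 of 66 genes (56.1%) and nominally higher in 29, beside 6683 of all 14217 genes (47.0%) nominally lower. The median difference was -0.153 within-group SD over the 66 genes and 0.0477 over all genes. Without Luc7l3, Rnpc3 and Ppih, 34 of 63 were nominally lower and the median was -0.096. Differences beyond 1 within-group SD were found in 8 genes on the lower side and 6 on the higher side, beside 893 and 1314 of all genes. In Ppih and Prpf4b all 5 DMHF rats lay below all 5 control rats, a pattern that 0.345% of all genes showed. The reverse, all 5 DMHF rats above, was seen in 0 of the 66 genes and in 0.549% of all genes. Nothing can be read from these shares about the members, since the same contrast chose them.

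No probe set on the array passed the test between the groups. In limma with Benjamini-Hochberg adjustment over 31042 probe sets, 0.0% were called, with 0.698 as the smallest adjusted p. An unadjusted limma p under 0.05 was given to 1002 higher and 698 lower probe sets. Quantile normalization of the deposited values left 10076 probe sets with any spread and 13 calls, 2 higher and 11 lower. Only 7 of the splicing factor genes could then be measured, 0 of them nominally lower, beside 1256 of all 3925 genes still measured. Among the 7, Luc7l2 had a difference of 0, so not all of them were higher.

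**Figure D1:**
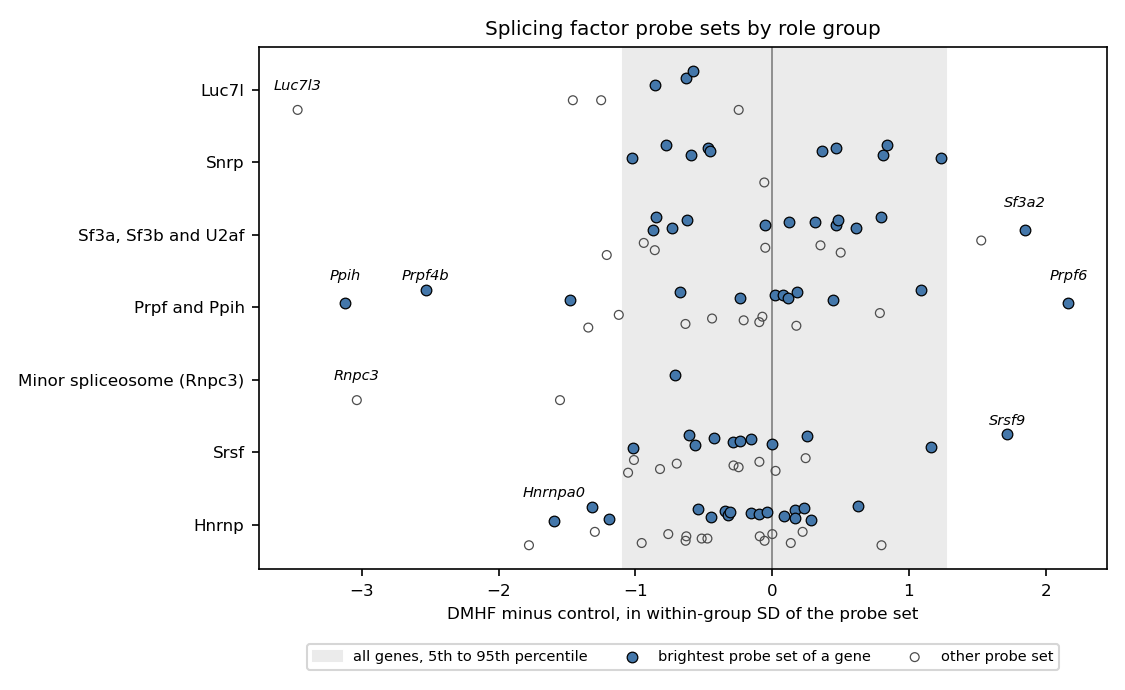
Difference between DMHF and control rats (horizontal axis, in within-group SD) of the 112 probe sets by role group; filled points are the brightest probe set of a gene, open points the other probe sets, and the grey band runs from -1.09 to 1.27, the 5th to 95th percentile of all genes. Most points lie inside the band, and the points farthest to the left belong to Luc7l3, Ppih, Rnpc3 and Prpf4b.

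By their most extreme probe set, Luc7l3, Ppih and Rnpc3 lay farthest on the lower side, but their other probe sets did not all follow. Luc7l3 belongs to the LUC7-like family, relatives of a yeast U1 snRNP protein that helps choose 5' splice sites. Values by rat are given below in millionths of a log2 unit from the control mean of the same probe set, in the order of the replicate numbers. The brightest Luc7l3 probe set (1399018_at, mean level 10.53) read -11.3, 5.96, 2.94, -18.0 and 20.4 in the control rats and -67.2, -13.6, 5.70, -15.7 and 13.2 in the DMHF rats. The groups overlapped, and DMHF rat 1 was far below every other rat. The difference was -15.5 ± 15.6 (SE, n = 5 a group), or -0.630 within-group SD, and without DMHF rat 1 it was -2.61.

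A dimmer Luc7l3 probe set separated the groups. Probe set 1377694_at, with a mean level of 6.95, read 3.91, -1.19, 5.27, -1.94 and -6.04 in control rats and -19.8, -21.6, -9.15, -15.4 and -22.8 in DMHF rats. All DMHF rats were below all control rats, with a difference of -17.8 ± 3.23 (SE, n = 5 a group), or -3.47 within-group SD. The remaining probe set, 1382957_at, read 11.2, -10.7, 1.38, 0.0054 and -1.89 in control rats. Its DMHF rats read -59.0, -38.0, -10.8, -29.7 and 4.57, so that 4 of 5 lay below every control rat and rat 5 lay among them. That difference was -26.6 ± 11.5 (SE), or -1.46 within-group SD.

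Rnpc3 encodes a protein of the U11 and U12 snRNPs and so belongs to the minor spliceosome. Its brightest probe set (1383629_a_at, mean level 8.15) read -60.5, 25.3, 17.5, -16.0 and 33.7 in control rats and -100.2, -24.3, -4.20, -42.6 and 20.5 in DMHF rats. The groups overlapped widely, and the lowest value in each group came from rat 1. The difference was -30.2 ± 26.8 (SE, n = 5 a group), or -0.713 within-group SD, and it was -12.7 without DMHF rat 1 and -45.3 without control rat 1.

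The other Rnpc3 probe sets were nominally lower as well. The dimmest, 1386258_at with a mean level of 5.85, read -2.33, 3.89, 2.20, -5.32 and 1.55 in control rats and -16.8, -16.1, -6.87, -9.82 and -11.2 in DMHF rats. All DMHF rats lay below all control rats here, at -12.2 ± 2.53 (SE, n = 5 a group) or -3.04 within-group SD. Probe set 1376744_at read 24.4, 6.24, 72.4, -61.4 and -41.6 in control rats and -70.4, -96.8, -58.2, -123.9 and -17.2 in DMHF rats. Its groups overlapped, since control rats 4 and 5 were as low as some DMHF rats. The difference there was -73.3 ± 29.9 (SE), or -1.55 within-group SD.

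Ppih encodes a cyclophilin, a peptidyl-prolyl isomerase that rides on the tri-snRNP. The brightest probe set (1374840_at, mean level 7.77) read -0.963, 2.23, -2.22, 2.22 and -1.26 in control rats and -4.52, -5.58, -5.92, -4.52 and -4.06 in DMHF rats. The DMHF rats formed a narrow band wholly below the control rats. The difference was -4.92 ± 0.996 (SE, n = 5 a group), or -3.12 within-group SD, and it ran from -5.48 to -4.36 as each rat was left out. The dimmer probe set, 1394554_at with a mean level of 6.39, went the other way at 8.60 ± 6.91 (SE), or 0.788 within-group SD. It read -18.6, 8.14, 1.15, 4.18 and 5.08 in control rats and 0.145, 15.5, 17.9, 16.2 and -6.75 in DMHF rats, which overlapped.

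Prpf4b encodes a protein kinase that phosphorylates tri-snRNP proteins. Its values by rat are given because its groups did not overlap, which was seen only after the values were known. The brightest probe set (1397203_at, mean level 8.86) read 12.6, -2.22, 6.81, -3.20 and -14.0 in control rats and -24.4, -19.8, -15.9, -19.6 and -16.5 in DMHF rats. The DMHF rats were tightly grouped below the lowest control rat, with an SD of 3.35 against 10.2 in control rats. The difference was -19.2 ± 4.80 (SE, n = 5 a group), or -2.53 within-group SD. In its other 3 probe sets the groups overlapped, with differences of 0.293, -3.82 and -1.73.

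Among all 112 probe sets, 4 had every DMHF rat below every control rat, and these were the ones just named in Luc7l3, Rnpc3, Ppih and Prpf4b. Over the whole array 0.332% of probe sets showed that pattern. The opposite pattern was seen in 0 of the 112 and in 0.535% of the array. When every array was shifted to a common median, the probe sets of Luc7l3 and Prpf4b kept the pattern, while those of Ppih and Rnpc3 overlapped. No share over the whole array stands beside that result. The medians of single arrays differed by at most 15.2 millionths, between -8.91 in control rat 5 and 6.27 in control rat 2. Differences of group means were moved by only -0.0462. The within-group SD was 1.575 for the Ppih probe set and 4.003 for that of Rnpc3. Shifts of single arrays that wide could make such narrow groups overlap by themselves, so the overlap decides nothing about these probe sets.

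**Figure D2:**
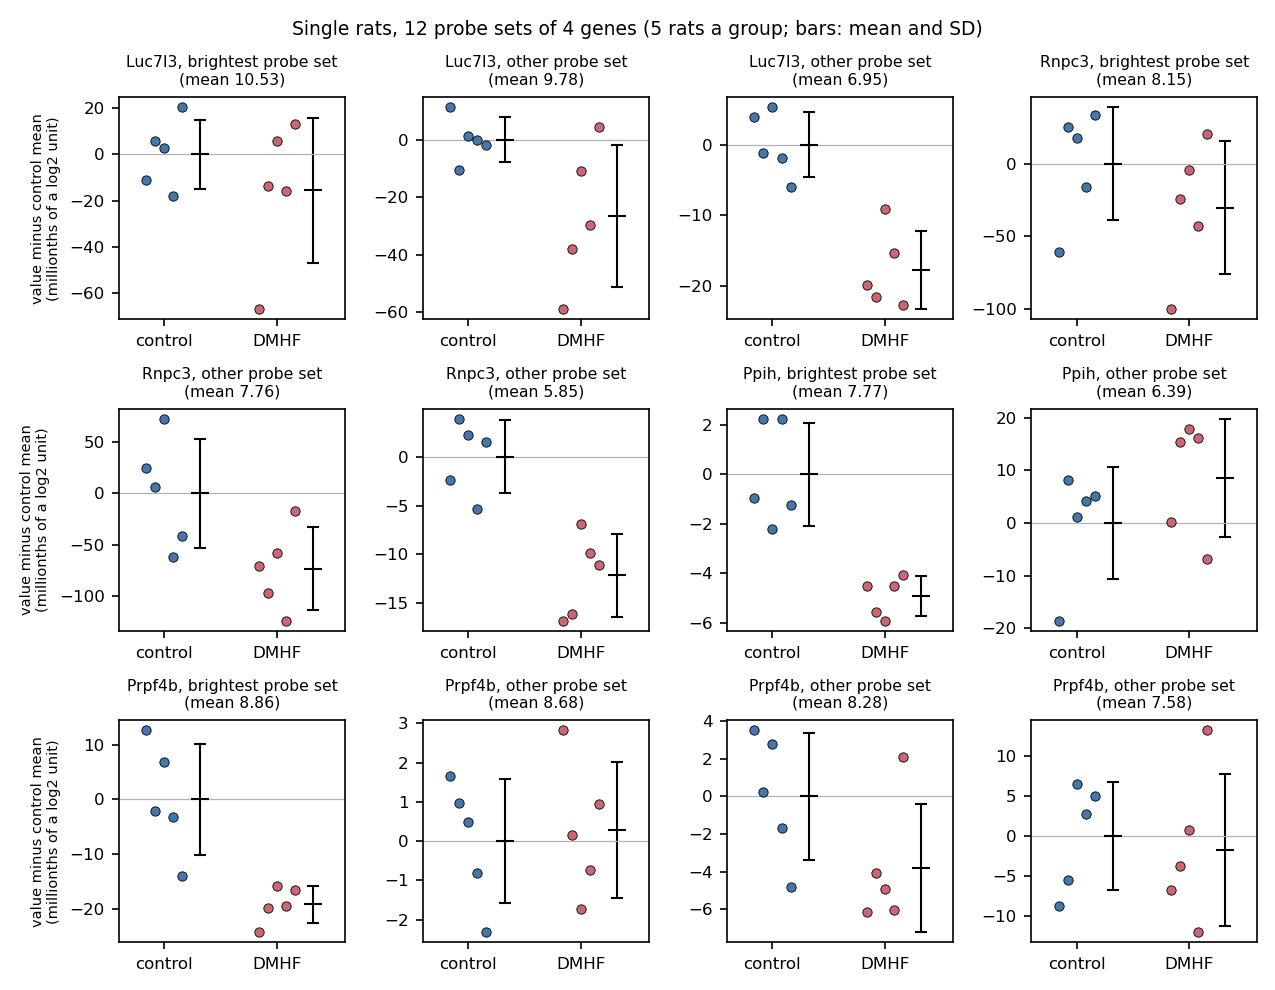
Values of the 10 rats for the 12 probe sets of Luc7l3, Rnpc3, Ppih and Prpf4b (vertical axes in millionths of a log2 unit from the control mean, scaled separately), with bars for the group mean and SD of 5 rats. In 4 panels, 1 for each gene, all DMHF points lie below all control points, and in the other 8 the groups overlap.

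The promoters of these 4 genes are shown because the genes hold the probe sets whose groups did not overlap. Each line gives the 150 bases before the RefSeq transcription start, read 5' to 3' on the gene's own strand, which is the minus strand in all 4. The RefSeq windows are on build GRCr8: Luc7l3 at chr10:79773430-79773579, Rnpc3 at chr2:204145129-204145278, Ppih at chr5:138209581-138209730 and Prpf4b at chr17:30224921-30225070. Capitals mark motif letters found on either strand: GGGCGG (GC box), CCGGAAG (the core bound by ETS factors) and TCTCGCGA (an element of many housekeeping promoters).
Luc7l3: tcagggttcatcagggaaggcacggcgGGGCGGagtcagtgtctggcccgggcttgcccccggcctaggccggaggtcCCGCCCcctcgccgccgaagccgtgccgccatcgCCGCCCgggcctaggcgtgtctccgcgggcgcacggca
Rnpc3: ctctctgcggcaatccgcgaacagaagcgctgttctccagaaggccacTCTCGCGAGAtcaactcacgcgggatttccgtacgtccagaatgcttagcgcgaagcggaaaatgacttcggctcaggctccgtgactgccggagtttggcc
Ppih: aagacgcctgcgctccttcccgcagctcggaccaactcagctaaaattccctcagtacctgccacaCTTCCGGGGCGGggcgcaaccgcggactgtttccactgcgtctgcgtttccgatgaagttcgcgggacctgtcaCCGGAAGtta
Prpf4b: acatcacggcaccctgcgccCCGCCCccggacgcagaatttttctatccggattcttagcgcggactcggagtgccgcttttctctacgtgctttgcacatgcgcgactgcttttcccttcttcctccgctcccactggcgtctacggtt
Luc7l3 held 3 GC boxes. Rnpc3 held the TCTCGCGA element on both strands, in overlapping letters. Ppih held an ETS core on each strand, the upstream one overlapping a GC box, and Prpf4b held 1 GC box. None of these motifs was found in all 4 stretches.

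Promoter windows of 300 bases, 250 before and 50 after the start, were found for 61 of the 66 genes. CCGGAAG was present in 18 of 61 genes (29.5%), beside 15.4% of 11700 genes on the array and 8.75% of all 33469 windows in the table. TCTCGCGA was present in 4 of 61 (6.56%), beside 1.73% of array genes and 0.855% of all windows. CCAAT was present in 54.1% beside 38.6% of array genes, GGGCGG in 60.7% beside 58.6%, and TATAAA in 11.5% beside 9.07%. These motifs were picked after the promoters were seen, a match describes letters and not a bound site, and a window without a match says nothing about the factor.

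The Luc7l family had 3 measured genes, all nominally lower in the brightest probe set, with a median of -0.630 within-group SD. Luc7l read -0.074, 0.098, -0.203, 0.054 and 0.125 in control rats and -0.113, 0.088, -0.199, -0.103 and -0.233 in DMHF rats. Its groups overlapped fully except for DMHF rat 5, at a difference of -0.112 ± 0.0828 (SE, n = 5 a group) or -0.856 within-group SD. Luc7l2 read -2.60, -2.38, -0.243, 0.928 and 4.30 in control rats and -8.07, -1.74, 2.82, -0.690 and -2.18 in DMHF rats. DMHF rat 1 was again the lowest, and the difference of -1.97 ± 2.16 (SE) became -0.448 without it.

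The Snrp genes encode proteins of the snRNPs, among them those of the Sm ring that wraps most spliceosomal RNAs. They were evenly split, with 5 of 10 nominally lower and a median of -0.0451 within-group SD. The lowest was Snrpd1, a Sm ring protein, at 0.239, -1.30, 0.748, 0.857 and -0.547 in control rats and -0.0852, -1.96, -1.46, -1.54 and 0.218 in DMHF rats. In 3 DMHF rats it lay below all control rats, and the difference was -0.966 ± 0.595 (SE, n = 5 a group) or -1.03 within-group SD. Highest was Snrpd2, its neighbour in the ring, at -0.012, -0.022, -0.062, 0.098 and -0.002 in control rats and 0.118, 0.058, 0.038, 0.108 and 0.008 in DMHF rats. Only control rat 4 reached into the DMHF range, and the difference was 0.066 ± 0.0337 (SE) or 1.24 within-group SD. Snrpe, also of the ring, stood at -0.774 within-group SD and Snrpb2, a U2 snRNP protein, at 0.837.

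The Sf3a, Sf3b and U2af genes serve recognition of the branch point and the 3' splice site. Of these 12 genes, 5 were nominally lower (41.7%, beside 47.0% of all genes), with a median of 0.217 within-group SD. Sf3a2, a subunit of the SF3A complex of the U2 snRNP, read -2.30, -0.0302, 0.748, -0.348 and 1.93 in control rats and 0.312, 6.57, 3.88, 3.05 and 4.02 in DMHF rats. Every DMHF rat but rat 1 lay above all control rats, and the difference was 3.57 ± 1.22 (SE, n = 5 a group) or 1.85 within-group SD. U2af1, the small U2AF subunit that reads the end of the intron, had the lowest difference at -1.19 ± 0.865 (SE) or -0.870 within-group SD. It read -0.717, -2.14, -0.299, 2.90 and 0.261 in control rats and -1.14, -1.44, -1.998, -0.485 and -0.885 in DMHF rats. The groups overlapped and control rat 4 was the highest of all, without which the difference was -0.465.

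Sf3b1, the SF3B subunit that clamps the branch point, was nominally lower in all 3 probe sets. The brightest stood at -0.849 within-group SD, and the others at -0.859 and -1.21. The last, 1382691_at, read 85.2, -81.3, 36.9, 1.71 and -42.5 in control rats and -182, -151, 2.73, -102 and -14.6 in DMHF rats. The groups overlapped, with 3 DMHF rats below the lowest control rat. Sf3b2 was nominally higher at 0.795 within-group SD in its brightest probe set and nominally lower at -0.939 in its other one.

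The Prpf genes and Ppih act mainly in the tri-snRNP and in the activated spliceosome, and they held the widest range of any role group, from -3.12 to 2.17 within-group SD. In number they were split, 5 of 12 nominally lower, with a median of 0.0495. Prpf6, a bridging protein between the U4/U6 and U5 snRNPs, was the highest of all 66 genes. It read -0.117, 0.508, -0.209, -0.301 and 0.120 in control rats and 1.14, 0.153, 0.664, 0.931 and 0.985 in DMHF rats. All DMHF rats but rat 2 lay above all control rats, and the difference was 0.775 ± 0.226 (SE, n = 5 a group). Prpf18, which acts in the second step of splicing, stood at 1.09 within-group SD in its brightest probe set and at -0.440 in the other.

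The SR protein genes were nominally lower in 7 of 11, with a median of -0.236 within-group SD. Symbol Srsf7-ps4 names a pseudogene and is counted among them by the rule. Srsf1, the founding SR protein, read 1.06, 0.764, -2.37, -0.976 and 1.51 in control rats and -7.27, -2.54, -1.21, -1.43 and 0.404 in DMHF rats. DMHF rat 1 was far below the rest, and the difference of -2.41 ± 1.49 (SE, n = 5 a group) became -1.19 without it. Srsf5 differed by -22.2 ± 23.0 (SE), and DMHF rat 1, at -101.4, carried most of it, since the difference was -2.41 without that rat. Srsf9 was the highest at 0.849 ± 0.313 (SE) or 1.72 within-group SD. It read -0.506, -0.177, -0.606, 0.617 and 0.671 in control rats and 0.439, 1.03, 0.515, 1.12 and 1.14 in DMHF rats. Control rats 4 and 5 reached into the DMHF range. Srsf3, the smallest SR protein, stood at 1.16 within-group SD, in a dim probe set with a mean level of 6.27, below the array median.

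The hnRNP genes were nominally lower in 11 of 17, with a median of -0.154 within-group SD and no gene above 1. Hnrnpa0, an hnRNP of the A/B type, was the lowest at -0.110 ± 0.0437 (SE, n = 5 a group) or -1.59 within-group SD. It read 0.058, 0.048, -0.072, -0.032 and -0.002 in control rats and -0.122, -0.212, -0.082, -0.142 and 0.008 in DMHF rats. All DMHF rats but rat 5 lay below all control rats. Hnrnpc, which binds uridine tracts, was the highest at 0.438 ± 0.444 (SE) or 0.624 within-group SD. Its control rats read 0.838, -0.302, -0.072, 0.128 and -0.592 and its DMHF rats 0.438, 1.70, -0.642, 0.298 and 0.398. DMHF rat 2 was above and DMHF rat 3 just below every control rat, and without DMHF rat 2 the difference was 0.123. Hnrnpr stood at -1.32 within-group SD and Hnrnpd, which binds AU-rich RNA, at 0.280, where leaving out DMHF rat 5 gave -0.0543 millionths in place of 0.535.

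**Figure D3:**
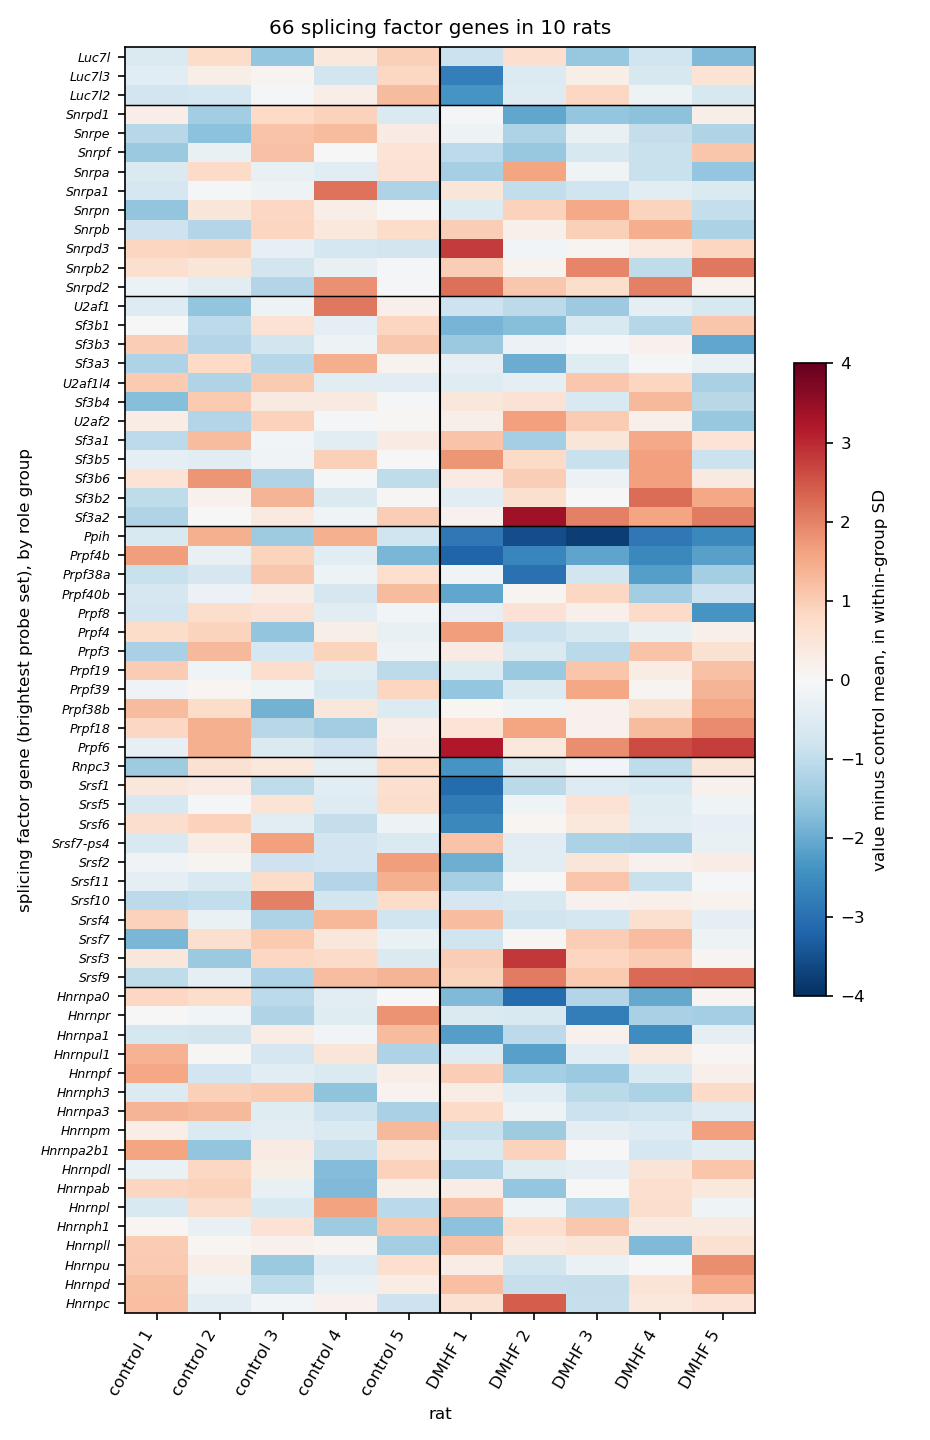
Value of the brightest probe set of each of the 66 genes (rows, by role group and then by difference) in each of the 10 rats (columns), in within-group SD from the control mean; blue is lower and red is higher. Rows of both colours fill the DMHF columns, Ppih and Prpf4b are blue in all 5 of them, and several Srsf and Luc7l rows are blue in DMHF rat 1.

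The sign of a gene often depended on the probe set. Of the 25 genes with several probe sets, 10 were nominally lower in all of them (40.0%), 1 was nominally higher in all and 14 had both signs. Over all 4525 such genes on the array, 23.8% were lower throughout and 25.1% higher throughout. The 10 were Hnrnpa2b1, Hnrnph3, Luc7l, Luc7l3, Rnpc3, Sf3b1, Snrpd1, Srsf11, Srsf2 and Srsf6, and Sf3a1 was the gene higher throughout. The probe sets that were not the brightest of their gene were nominally lower in 35 of 46 (76.1%), with a median of -0.457 within-group SD. Such probe sets over the whole array were nominally lower in 48.6%, with a median of 0.0247. With Luc7l3, Rnpc3 and Ppih left out, 31 of 41 were nominally lower. Hnrnpa2b1 binds RNA in transport granules as well as in the nucleus. Its brightest probe set stood at -0.154 within-group SD. Of its other probe sets, 1373540_at stood at -1.78 and 1378543_at at -0.760, while 1395561_at, at -0.0909, lay nearer 0 than the brightest. These values also come from the contrast that chose the genes.

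After each group's mean was removed, probe sets of 1 gene went together only loosely from rat to rat. The p values behind the choice of genes rested in part on this spread within groups, so it is not wholly separate from that choice. Over 75 pairs within a gene the median Pearson r was 0.237 and the median Spearman rho 0.224 (n = 10 rats), beside 0.203 and 0.188 over 9597 such pairs on the array. Of the 75 pairs, 20 had an r above 0.5 (26.7%, beside 24.9% on the array), and 26 were below 0. The closest pair was in Sf3b1, between 1382691_at and 1389840_at, with an r of 0.935 and a rho of 0.939. Close pairs were also found in Hnrnpa3 (r up to 0.865), Srsf2 (0.807), Prpf4b (0.777 between its brightest probe set and 1382646_at), Srsf6 (0.658 to 0.764) and Luc7l3 (0.741 between its brighter probe sets). The Luc7l3 probe set whose groups did not overlap had an r of 0.0143 with the brightest one, and the probe sets of Ppih had an r of 0.0645. Opposite movement was seen in Prpf18 (-0.675), U2af1l4 (-0.673) and Luc7l (-0.662). All probe sets share the same 10 arrays, and no test was made of these correlations.

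Different genes of the set showed no common course over the rats. Over 2145 pairs of splicing factor genes the median r was 0.0035 (rho 0.018), beside 0.007 (rho 0.006) over all pairs of genes. By rat, the mean deviation from the group mean ran from -0.185 within-group SD in DMHF rat 1 to 0.202 in DMHF rat 5. Within role groups the rats differed more. DMHF rat 1 stood at -1.30 for the Luc7l genes and -0.798 for the Srsf genes, the lowest of the 10 rats in both, while for the Snrp genes it stood at 0.384.

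Splicing genes outside the symbol rule were described from 6 lists. Of 168 listed genes 148 were measured, 82 were nominally lower, and the median was -0.0483 within-group SD. All DMHF rats lay below all control rats in 0 of the 148 and above them in 0, beside 0.345% and 0.549% of all genes. With shares that small, the 0 says nothing particular about these lists. The minor spliceosome list had 9 of 12 nominally lower and a median of -0.486 within-group SD. Its ends were Zcrb1 at -1.32 and Zmat5 at 1.35, both proteins of the U11/U12 snRNP. Kinases of SR proteins and proteins of nuclear speckles were nominally lower in 14 of 21, with a median of -0.08985. They ran from Clk3 at -1.24 to Clk2 at 0.929, related kinases that phosphorylate SR proteins.

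By count, the remaining lists lay closer to an even split. Their medians, in the order of the lists below, were -0.127, -0.0656, -0.353 and 0.0918 within-group SD. Proteins of the U1, U5 and other snRNPs were nominally lower in 16 of 31, from Usp39, which is needed for tri-snRNP assembly, at -1.53 within-group SD to Txnl4a, a U5 snRNP protein, at 0.836. For the catalytic spliceosome and the complex around Prpf19 the count was 13 of 22, from the cyclophilin Ppil1 at -1.19 to Plrg1 at 1.08. The exon junction complex and export list had 10 of 18, and both ends, Magoh at -1.69 and Casc3 at 1.34, are core proteins of that complex. Neuronal and other regulators of alternative splicing were nominally lower in 20 of 44, from the nuclear matrix protein Matr3 at -1.58 to Khdrbs1, known as Sam68, at 1.89. In limma over the whole array, 0 probe sets of these genes were called, as everywhere.

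**Figure D4:**
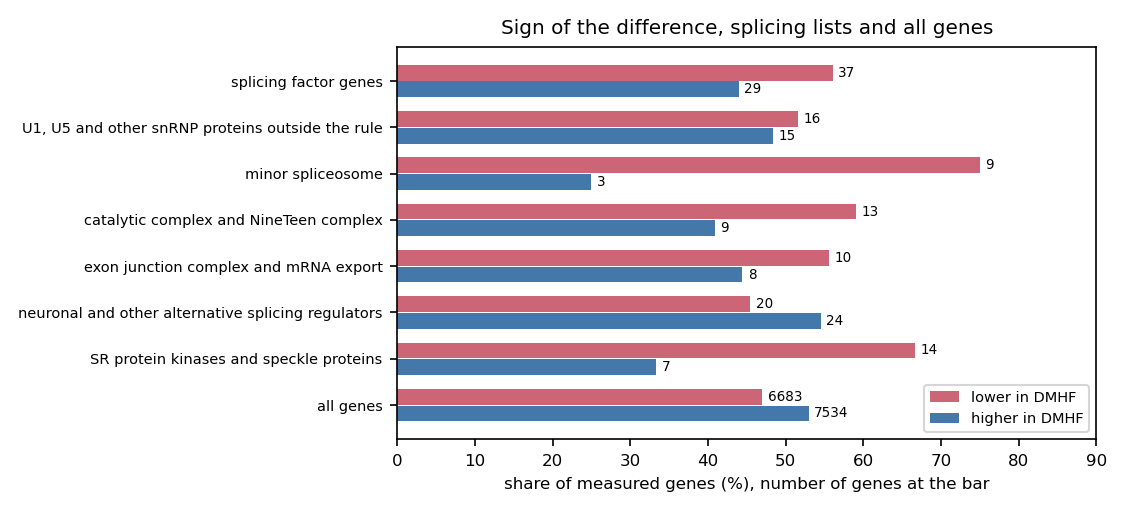
Share of measured genes (horizontal axis, percent) that were nominally lower (red) or higher (blue) in DMHF rats, for the 66 splicing factor genes, 6 lists of other splicing genes and all genes, with the number of genes at each bar. The splicing factor genes stand at 56.1% lower, the minor spliceosome list at 9 of 12, the regulators at 20 of 44 and all genes at 47.0%.

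Cell type markers, none of which limma called, and RNA control probe sets, which were outside the test, were described in the same way. Choroid plexus markers were nominally higher after DMHF in 7 of 7 genes, with a mean per rat from -1.02 to 1.04 within-group SD in control rats and -0.206 to 2.07 in DMHF rats. Ependyma markers were nominally higher in 5 of 5, from -0.943 to 0.859 in control rats and 0.236 to 1.76 in DMHF rats. Pituitary markers were nominally higher in 7 of 8, from -1.22 to 0.589 and from 0.189 to 1.59. The ranges of the groups overlapped in all 3 lists. Above the array median lay 4 of 7 choroid plexus, 1 of 5 ependyma and 1 of 8 pituitary genes. The ependyma and pituitary values therefore came mostly from dim probe sets, with gene levels of 6.4 to 7.27 and 5.76 to 7.42. Endothelium markers were nominally lower in 5 of 6, meninges and fibroblast markers in 5 of 6, oligodendrocyte markers in 5 of 7 and neuron markers in 5 of 10. For microglia the count was 4 of 7, for astrocytes 3 of 7 and for blood cells 2 of 5. The 9 rat RNA control probe sets for the 5', middle and 3' parts of beta-actin, GAPDH and hexokinase were all nominally higher, from 0.0401 to 2.42 within-group SD, the last for the middle of hexokinase. The part of these in the splicing factor values was not tested.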

How the data were processed

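RNA of the right brain of 10 male Wistar rats, 5 control and 5 DMHF, was measured on 1 Affymetrix array each. The authors deposited 1 table of processed values, taken here as log2 from their range, and R 2.7.2 is named in the submitters' processing notes. The sources used here state no background correction, normalization, summary method or log base, nor the step that left differences of millionths of a log2 unit. For this reason a difference has no reading as a fold change.

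Of 31099 probe sets, 57 Affymetrix controls were left out. The platform annotation named 1 gene for 20826 probe sets, several for 436 and none for 9780. Members are single-gene probe sets whose symbol starts with a listed prefix, and 8 probe sets that name a member and another gene were not used. All 66 members were found in the RefSeq gene table, and promoters came from RefSeq (GRCr8). The members and lists were chosen with earlier results of these data known.

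DMHF was compared with control in a two-sided limma test (version 3.58.1, R 4.3.3, lmFit then eBayes, Benjamini-Hochberg, threshold 0.05), checked on simulated data. Other values were computed in Python 3.11.15. Genes named are Rnpc3, Ppih, Luc7l3, the 2 lowest and 2 highest genes of each role group by difference in within-group SD, and the lowest and highest gene of each pathway list. Values by rat are given for the first 3 and for the lowest and highest gene of each role group; Prpf4b, a dim probe set of Sf3b1 and the genes named for sign or correlation were added after their values were seen. Alternatives were a common array median, quantile normalization, a replicate block, the brighter probe sets alone, a trended and robust variance, other choices of probe set and each array left out. The number of arrays limits the precision.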

Additional observations from a re-analysis of the deposited data

Results flagged for a closer look

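In 48 groups of 5 rats, taken from 24 probe sets whose values by rat were computed, the highest or lowest rat was set against the other rats of its group by Dixon's ratio and its 95% critical value. Chance gives about 1 such rat in 20 groups, and 2 were found. In Prpf4b probe set 1382646_at, DMHF rat 5 stood at 2.09 millionths of a log2 unit from the control mean, above the other DMHF rats, with a gap of 0.747 of the group's range. In Ppih probe set 1394554_at, control rat 1 stood at -18.6 millionths, below the other control rats, with a gap of 0.738 of the range. Neither is the brightest probe set of its gene.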

How the results depend on the processing

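The 37 of 66 genes with a nominally lower mean became 43 (65.2%, beside 50.5% of all genes) when every array was shifted to a common median, and 36 to 41 as each array was left out. The common median moved every difference of means by -0.0462 millionths, so only genes with differences nearer 0 than that could change sign. Their median of -0.153 within-group SD became -0.0356 under the common median and lay between -0.322 and -0.034 with single arrays left out. With the brighter probe sets alone 37 of 63 genes were nominally lower (median -0.234), with the dimmest probe set for each gene 38 (-0.221), and with the mean of its standardised probe sets 39 (-0.400). Quantile normalization left 7 of the 66 genes with spread, 0 of them nominally lower and Luc7l2 at a difference of 0, with a median of 0.365. Of all 3925 genes then measured, 1256 were nominally lower. The same step left 10076 probe sets and gave 13 limma calls in place of 0, and turned Prpf4b to 11.6 millionths. The cause was not tested beyond the loss of probe sets. With 1 array left out, 0 to 1 probe sets were called, 1 without DMHF replicate 2. The 2 genes with all DMHF rats below all control rats became 1 under the common median (Prpf4b). The loss of Ppih there decides nothing, since the shifts of single arrays were wide beside its within-group SD. For the mean of each gene's standardised probe sets the count was 1 (Luc7l3). Under quantile normalization it was 0, but Ppih was not among the 7 genes still measured, so its separation could not be checked. With 1 array left out the count was 2 to 3, with Hnrnpr added without control rat 3 and Hnrnpa0 without DMHF rat 5. The 0 genes with all DMHF rats above became 0 to 1 with 1 array left out: Prpf6 without control rat 2 or DMHF rat 2, Snrpd2 without control rat 4, Sf3a2 without DMHF rat 1 and Srsf3 without DMHF rat 5. No share over all genes stands beside these counts, and fewer rats in a group make separation easier to reach. The genes added are therefore no result about the members. Of the values of the 24 named genes with 1 array left out, 239 kept their sign and 1 changed, that of Hnrnpd. Under the common median all 24 kept their sign, which was fixed in advance. The shift of -0.0462 millionths was smaller than each of their differences, the smallest being 0.056 in Sf3b2.

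The labels do not say that a replicate number marks a shared litter, cage or day, and the numbers were not used to pair the rats. Same-numbered rats had correlations of 0.214, 0.0329, 0.273, 0.0856 and 0.0288, all positive but several near 0, and 6 of 10 rats were closest to their own number, a hint of pairing from the data and not from the design. With the replicate number as a block, limma called 0 probe sets, with 1280 higher and 937 lower at an unadjusted p under 0.05 and a smallest adjusted p of 0.172, and the median of the 66 genes was -0.160.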
